A study of Homo sapiens with 8 samples.

Results

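The p53-linked autophagy genes described here are DRAM1, TP53INP1, TP53INP2, ULK1, ULK2, ATG2B, ATG10, MAP1LC3B, GABARAPL1 and SQSTM1. They were chosen by name, as the rows of the deposited count and RPKM tables that carry these symbols, and they make up 10 of the 25369 genes listed. All 10 had enough reads to be tested, as did 15879 genes in all. The study sequenced poly(A) RNA of the human neuroblastoma line CHP212 in 4 groups of 2 independent biological replicates. These were FAM193A knockout (KO) cells given Nutlin-3a at 10 uM or DMSO at 0.2%, and wild-type (WT) cells given the same 2 treatments. Treatment lasted 12 h in every group. All 4 groups were grown in the same serum-supplemented medium. The labels name 1 KO population and do not describe the edit, so a difference between KO and WT cells is a difference between 2 populations and need not come from the missing gene. The FAM193A transcript was still read in KO cells. Scaled to the TMM-adjusted library total (CPM), it had 42.0 and 38.1 in KO Nutlin-3a and 34.8 and 32.2 in KO DMSO libraries. The transcript had 50.4 and 44.5 CPM in WT Nutlin-3a, and 44.1 and 39.96 CPM in WT DMSO libraries. Within each treatment the KO libraries lay below the WT libraries in CPM. The log2 fold change, KO over WT, was -0.24 under Nutlin-3a (SE 0.07, adjusted p = 0.00827 in edgeR's quasi-likelihood test) and -0.33 under DMSO (SE 0.08, adjusted p = 0.000999). In RPKM, which are not TMM-scaled, the Nutlin-3a groups overlapped, with 8.42 and 7.58 in KO and 9.40 and 8.38 in WT libraries.

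Autophagy encloses part of the cytoplasm in a new double membrane, the phagophore, and delivers it to the lysosome. The ULK kinases start the process, ATG2 proteins carry lipids into the growing membrane, and a ubiquitin-like conjugation system attaches ATG8 proteins to it, which in turn bind cargo receptors such as SQSTM1. Nutlin-3a occupies the pocket of the ubiquitin ligase MDM2 that holds p53, and thereby stabilises this transcription factor, of which DRAM1 and TP53INP1 are known direct targets. Messenger RNA levels are not a measure of autophagic activity, and no readout of that activity was analysed here.

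Libraries held 28390405 to 38010075 reads. Replicates differed by more than counting noise (chi-square divided by the number of genes, 4.03 in KO Nutlin-3a, 2.38 in KO DMSO, 9.26 in WT Nutlin-3a and 2.72 in WT DMSO cells), and all 8 libraries were kept. An earlier analysis of these data had named 3 of them as carrying reads of unrelated genes. These were KO Nutlin-3a replicate 2, WT Nutlin-3a replicate 1 and WT DMSO replicate 2, and results were also computed without them. The 10 neuroblastoma markers examined were read in every library. Their summed level was 3983 to 4169 CPM in KO Nutlin-3a, 4568 to 4640 in KO DMSO, 3294 to 3455 in WT Nutlin-3a and 4956 to 4988 in WT DMSO cells, while 15 markers of other lineages summed to 2.59 to 5.20 CPM in any library. The neuroblastoma markers differed between the populations. TH, the first enzyme of catecholamine synthesis, had 9.70 to 12.9 CPM in KO and 228 to 480.5 CPM in WT libraries. The part of this difference in the KO against WT values below was not tested. CPM are read counts scaled to the library total after its adjustment by a TMM factor. RPKM are read counts scaled to the unadjusted library total and divided by gene length. The TMM factors were 1.01 to 1.04 in KO and 0.969 to 0.980 in WT libraries. KO against WT readings can therefore differ between CPM and RPKM. In such bulk RNA, fewer cells with a transcript and less of it per cell cannot be told apart.

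Nutlin-3a raised DRAM1 and TP53INP1 several-fold in both populations and changed the other 8 genes far less, by at most the 2.01-fold rise of GABARAPL1 in WT cells. In KO cells, 5 of the 10 genes rose (DRAM1, TP53INP1, ULK1, GABARAPL1 and SQSTM1), 0 fell and 5 did not pass the threshold, an adjusted p of 0.05 in edgeR's quasi-likelihood test. Of all tested genes, 18.1% were called higher and 20.6% lower there. In KO cells 1 of the 10, ULK2, was lower at an unadjusted p under 0.05, and neither the DESeq2 Wald test nor limma-trend called any lower. When edgeR was fitted to the 4 KO libraries alone, ULK2 was called lower (log2 fold change -0.13, adjusted p = 0.0309). Further runs that called it are given with ULK2 below. In WT cells 8 of the 10 rose and 2, ULK2 and ATG10, fell, where 29.4% of all genes were called higher and 29.2% lower. The 10 genes were chosen with earlier results of these data known, so such shares are descriptions and not a test. The median log2 fold change of the 10 genes was 0.21 in KO and 0.57 in WT cells, against -0.0057 and 0.017 over all tested genes.

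**Figure D1:**
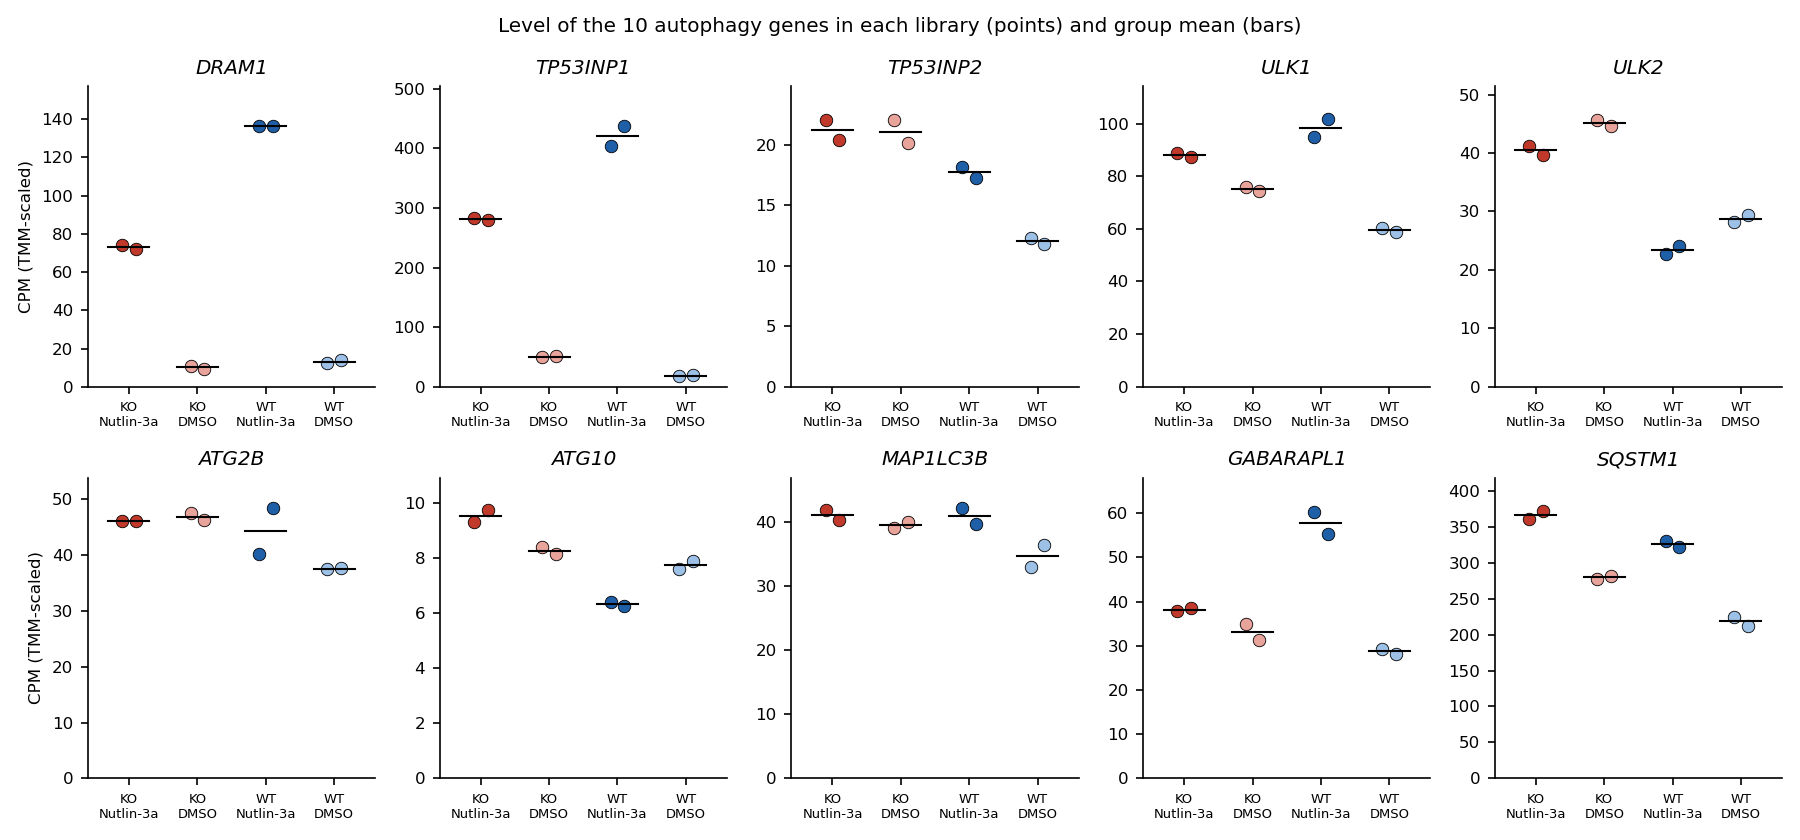
Level of each of the 10 genes in CPM (vertical axes, from 0) in the 2 libraries of each group (points) with the group mean (bar). DRAM1 and TP53INP1 stand far higher in both Nutlin-3a groups than in the DMSO groups, and the other genes span narrower ranges.

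DRAM1 encodes a lysosomal membrane protein through which p53 can promote autophagy. It had 74.2 and 72.2 CPM in KO Nutlin-3a, 11.0 and 9.44 in KO DMSO, 136 and 137 in WT Nutlin-3a, and 12.2 and 13.9 in WT DMSO libraries. No group overlapped another, and the 2 WT Nutlin-3a libraries were the highest. The rise with Nutlin-3a was 7.17-fold in KO cells (log2 fold change 2.84, SE 0.07, adjusted p = 7.2e-16) and 10.5-fold in WT cells (3.39, SE 0.07, adjusted p = 1.7e-17). The KO rise was smaller by 0.55 on the log2 scale, that is a difference of the responses, KO minus WT, of -0.55 (SE 0.11, adjusted p = 0.000731).

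Under both treatments DRAM1 was lower in KO cells. The log2 fold change, KO over WT, was -0.90 under Nutlin-3a (SE 0.06, adjusted p = 1.5e-10) and -0.35 under DMSO (SE 0.09, adjusted p = 0.00200). The DMSO value was -0.24 without KO DMSO replicate 2 (adjusted p = 0.0564) and -0.26 without WT DMSO replicate 2 (adjusted p = 0.0522), and so lost its call.

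TP53INP1 encodes a stress-induced protein that binds ATG8 proteins and also acts with p53 in the nucleus. It had 283 and 279 CPM in KO Nutlin-3a, 49.5 and 51.9 in KO DMSO, 404 and 438 in WT Nutlin-3a, and 18.1 and 19.3 in WT DMSO libraries. The WT libraries were thus both the lowest and the highest. Nutlin-3a raised it 5.54-fold in KO cells (log2 fold change 2.47, SE 0.05, adjusted p = 9.2e-17) and 22.5-fold in WT cells (4.49, SE 0.06, adjusted p = 4.2e-20). Its responses differed by -2.02 (SE 0.08, adjusted p = 7.8e-12), the largest difference among the 10 genes.

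That difference was made up of both ends of the response. Under DMSO, TP53INP1 was 2.71-fold higher in KO than in WT cells (log2 1.44, SE 0.06, adjusted p = 5.2e-13), and under Nutlin-3a it was lower in KO cells (-0.58, SE 0.05, adjusted p = 5.4e-09). DRAM1 and TP53INP1 therefore had opposite signs in KO against WT cells under DMSO and the same sign under Nutlin-3a. These calls of TP53INP1, and those of DRAM1 in the responses, in their difference and under Nutlin-3a, held in every alternative run. NDUFAF6, whose gene lies next to TP53INP1, did not follow it, with 13.7 and 14.8 CPM in KO Nutlin-3a, 17.3 and 16.4 in KO DMSO, 9.89 and 8.95 in WT Nutlin-3a, and 14.3 and 14.6 in WT DMSO libraries.

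TP53INP2, the paralog of TP53INP1, encodes a protein that shuttles from the nucleus to autophagosomes and binds ATG8 proteins there. It had 22.1 and 20.4 CPM in KO Nutlin-3a, 22.0 and 20.1 in KO DMSO, 18.2 and 17.3 in WT Nutlin-3a, and 12.3 and 11.8 in WT DMSO libraries. The 2 KO groups overlapped and lay above both WT groups. Its change with Nutlin-3a was 0.01 on the log2 scale in KO cells (95% interval -0.16 to 0.18, adjusted p = 0.929), and it rose by 0.56 in WT cells (SE 0.09, adjusted p = 3.4e-05). The KO response was thus smaller, with a difference of -0.55 (SE 0.12, adjusted p = 0.00239). TP53INP2 was higher in KO than in WT cells by 0.26 under Nutlin-3a (SE 0.08, adjusted p = 0.0120) and by 0.81 under DMSO (SE 0.09, adjusted p = 2.4e-07). The call under Nutlin-3a was lost without KO Nutlin-3a replicate 1 (0.20, adjusted p = 0.109) and with the DESeq2 Wald test (adjusted p = 0.0613).

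ULK1 encodes the kinase that starts autophagy when nutrients are short. It had 88.8 and 87.2 CPM in KO Nutlin-3a, 75.8 and 74.4 in KO DMSO, 94.8 and 102 in WT Nutlin-3a, and 60.2 and 58.8 in WT DMSO libraries. Each Nutlin-3a group lay above its DMSO group, and in CPM the WT groups were again the outer ones. In RPKM the 2 Nutlin-3a groups overlapped, with 17.7 and 17.3 in KO and 17.6 and 19.1 in WT libraries. ULK1 rose by 0.23 in KO cells (SE 0.05, adjusted p = 0.00123) and by 0.72 in WT cells (SE 0.05, adjusted p = 6.9e-10), with a difference of the responses of -0.49 (SE 0.07, adjusted p = 4.9e-05). KO against WT, it was lower by 0.16 under Nutlin-3a (log2 fold change -0.16, SE 0.05, adjusted p = 0.0101) and higher by 0.34 under DMSO (SE 0.05, adjusted p = 1.8e-05). The call under Nutlin-3a was lost without KO Nutlin-3a replicate 2 (-0.15, adjusted p = 0.0656), without WT Nutlin-3a replicate 2 (-0.11, adjusted p = 0.0700) and with limma-trend (-0.06 to -0.07, adjusted p from 0.296 to 0.335).

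ULK2, the related kinase, went the other way. It had 41.3 and 39.7 CPM in KO Nutlin-3a, 45.6 and 44.5 in KO DMSO, 22.6 and 24.2 in WT Nutlin-3a, and 28.2 and 29.4 in WT DMSO libraries. Every KO library lay above every WT library. ULK2 fell by 0.30 with Nutlin-3a in WT cells (log2 fold change -0.30, SE 0.07, adjusted p = 0.000939). That call was lost when 3 libraries, KO Nutlin-3a replicate 2, WT Nutlin-3a replicate 1 and WT DMSO replicate 2, were left out together (-0.20, adjusted p = 0.0539). In KO cells the change was -0.15 (SE 0.06, adjusted p = 0.0505), which passed the threshold when WT Nutlin-3a replicate 1 (adjusted p = 0.0418) or replicate 2 (adjusted p = 0.0184) was left out, or when only the 4 KO libraries were fitted (adjusted p = 0.0309). Between the responses the difference was 0.15 (95% interval -0.05 to 0.34, adjusted p = 0.262). ULK2 was higher in KO cells by 0.79 under Nutlin-3a (SE 0.07, adjusted p = 4.7e-09) and by 0.65 under DMSO (SE 0.06, adjusted p = 5.5e-08).

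ATG2B encodes a lipid transfer protein that feeds the phagophore. It had 46.1 and 46.0 CPM in KO Nutlin-3a, 47.5 and 46.3 in KO DMSO, 40.1 and 48.5 in WT Nutlin-3a, and 37.4 and 37.6 in WT DMSO libraries. In RPKM, WT Nutlin-3a replicate 2 (4.28) lay within the range of the KO libraries (4.23 to 4.35). In CPM, the 2 WT Nutlin-3a libraries lay on either side of all KO libraries. In WT cells it rose by 0.24 (SE 0.07, adjusted p = 0.00981), and this depended on them, at 0.39 without WT Nutlin-3a replicate 1 and 0.09 without WT Nutlin-3a replicate 2 (adjusted p = 0.245). Its call was also lost without WT DMSO replicate 2 (adjusted p = 0.0533) and with limma-trend (adjusted p from 0.0681 to 0.0990). In KO cells the change was -0.03 (95% interval -0.17 to 0.12, adjusted p = 0.808). The difference of the responses, -0.26 (SE 0.10, adjusted p = 0.0619), was -0.40 and called without WT Nutlin-3a replicate 1 (adjusted p = 0.000221), and -0.12 and not called without WT Nutlin-3a replicate 2. It was also called with no low-count filter (adjusted p = 0.0231). Under DMSO, ATG2B was higher in KO cells (0.32, SE 0.07, adjusted p = 0.000812). Under Nutlin-3a the value was 0.06 (95% interval -0.09 to 0.21, adjusted p = 0.497), and 0.20 without WT Nutlin-3a replicate 2 (adjusted p = 0.00968).

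ATG10 encodes the E2-like enzyme that couples ATG12 to ATG5. It was the least read of the 10 genes, with 174 to 343 reads per library. It had 9.31 and 9.77 CPM in KO Nutlin-3a, 8.41 and 8.15 in KO DMSO, 6.43 and 6.25 in WT Nutlin-3a, and 7.62 and 7.90 in WT DMSO libraries. The Nutlin-3a group lay above its DMSO group in KO cells and below it in WT cells. The change was 0.20 in KO cells (SE 0.11, adjusted p = 0.140, and 0.0387 with limma-trend on log2(RPKM + 1)) and -0.29 in WT cells (SE 0.12, adjusted p = 0.0413), with a difference of the responses of 0.49 (SE 0.16, adjusted p = 0.0258). ATG10 was higher in KO than in WT cells under Nutlin-3a (0.59, SE 0.11, adjusted p = 0.000175), and the value under DMSO was 0.09 (95% interval -0.14 to 0.32, adjusted p = 0.481).

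The fall of ATG10 in WT cells lost its call in 10 of 18 alternatives, among them each one that left out a WT or a KO DMSO library (adjusted p from 0.0536 to 0.148). The difference of its responses lost its call in 7 of 17, among them each one without a DMSO library (adjusted p from 0.0592 to 0.0887) and the one without KO Nutlin-3a replicate 2 (adjusted p = 0.0811). An exon of ATG10 overlaps RPS23, a highly read ribosomal protein gene on the opposite strand in the GENCODE 29 annotation. The libraries are strand-specific per the labels, but the strand setting of the counting is not given in the sources used here. The same holds for ATG2B with GSKIP, MAP1LC3B with FBXO31 and SQSTM1 with MGAT4B.

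MAP1LC3B encodes LC3B, the ATG8 protein most used to mark autophagosomes. It had 42.0 and 40.4 CPM in KO Nutlin-3a, 39.1 and 40.1 in KO DMSO, 42.3 and 39.7 in WT Nutlin-3a, and 33.0 and 36.5 in WT DMSO libraries. The first 3 of these groups lay close together above the WT DMSO libraries. The change with Nutlin-3a was 0.06 in KO cells (95% interval -0.08 to 0.19, adjusted p = 0.517), and MAP1LC3B rose by 0.24 in WT cells (SE 0.07, adjusted p = 0.00431), a call lost without WT DMSO replicate 1 (0.19, adjusted p = 0.0549). The difference of the responses was -0.18 (95% interval -0.38 to 0.01, adjusted p = 0.152). KO against WT, the value was 0.01 under Nutlin-3a (95% interval -0.13 to 0.14, adjusted p = 0.942) and 0.19 under DMSO (SE 0.06, adjusted p = 0.0170). The DMSO call was lost without KO DMSO replicate 2 (0.17, adjusted p = 0.102), without WT DMSO replicate 1 (0.12, adjusted p = 0.219) and with the DESeq2 Wald test (adjusted p = 0.0905). MAP1LC3B2, a near-identical copy, had 0 to 3 reads per library, and reads shared between the copies may be counted for neither.

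GABARAPL1 encodes an ATG8 protein of the GABARAP branch. It had 37.9 and 38.5 CPM in KO Nutlin-3a, 34.8 and 31.3 in KO DMSO, 60.3 and 55.2 in WT Nutlin-3a, and 29.3 and 28.2 in WT DMSO libraries. The WT Nutlin-3a libraries stood apart above all others. GABARAPL1 rose by 0.21 in KO cells (SE 0.07, adjusted p = 0.0188) and by 1.01, or 2.01-fold, in WT cells (SE 0.07, adjusted p = 3.2e-10). Its responses differed by -0.80 (SE 0.10, adjusted p = 5.9e-06), the second largest of the 10. The rise in KO cells lost its call without KO Nutlin-3a replicate 1 (adjusted p = 0.0697), without KO Nutlin-3a replicate 2 (adjusted p = 0.106) and without KO DMSO replicate 2, where it was 0.13 (adjusted p = 0.278).

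KO against WT, GABARAPL1 was lower under Nutlin-3a (log2 fold change -0.60, SE 0.07, adjusted p = 2.4e-07) and higher under DMSO (0.20, SE 0.07, adjusted p = 0.0188). The DMSO call was lost without KO DMSO replicate 1 (0.12, adjusted p = 0.239), without WT DMSO replicate 2 (0.17, adjusted p = 0.117) and with the DESeq2 Wald test (adjusted p = 0.0842). GABARAPL3, a near-identical copy, had 0 reads in all 8 libraries.

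SQSTM1 encodes p62, a receptor that links ubiquitin-tagged cargo to ATG8 proteins and is degraded with it. It had 361 and 373 CPM in KO Nutlin-3a, 277 and 282 in KO DMSO, 330 and 322 in WT Nutlin-3a, and 225 and 212 in WT DMSO libraries. No group overlapped another, and KO cells were higher than WT cells under both treatments. SQSTM1 rose by 0.39 in KO cells (SE 0.05, adjusted p = 1.6e-06) and by 0.58 in WT cells (SE 0.05, adjusted p = 3.8e-09). KO against WT, it was higher by 0.17 under Nutlin-3a (SE 0.05, adjusted p = 0.00360), or 0.26 with limma-trend, and by 0.36 under DMSO (SE 0.05, adjusted p = 2.5e-06). The difference of the responses was -0.19 (SE 0.07, adjusted p = 0.0406). That call was lost in 8 of 17 alternatives, namely the 3 with limma-trend (adjusted p from 0.0872 to 0.113) and those without any KO library or without WT DMSO replicate 2 (adjusted p from 0.0647 to 0.219).

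**Figure D2:**
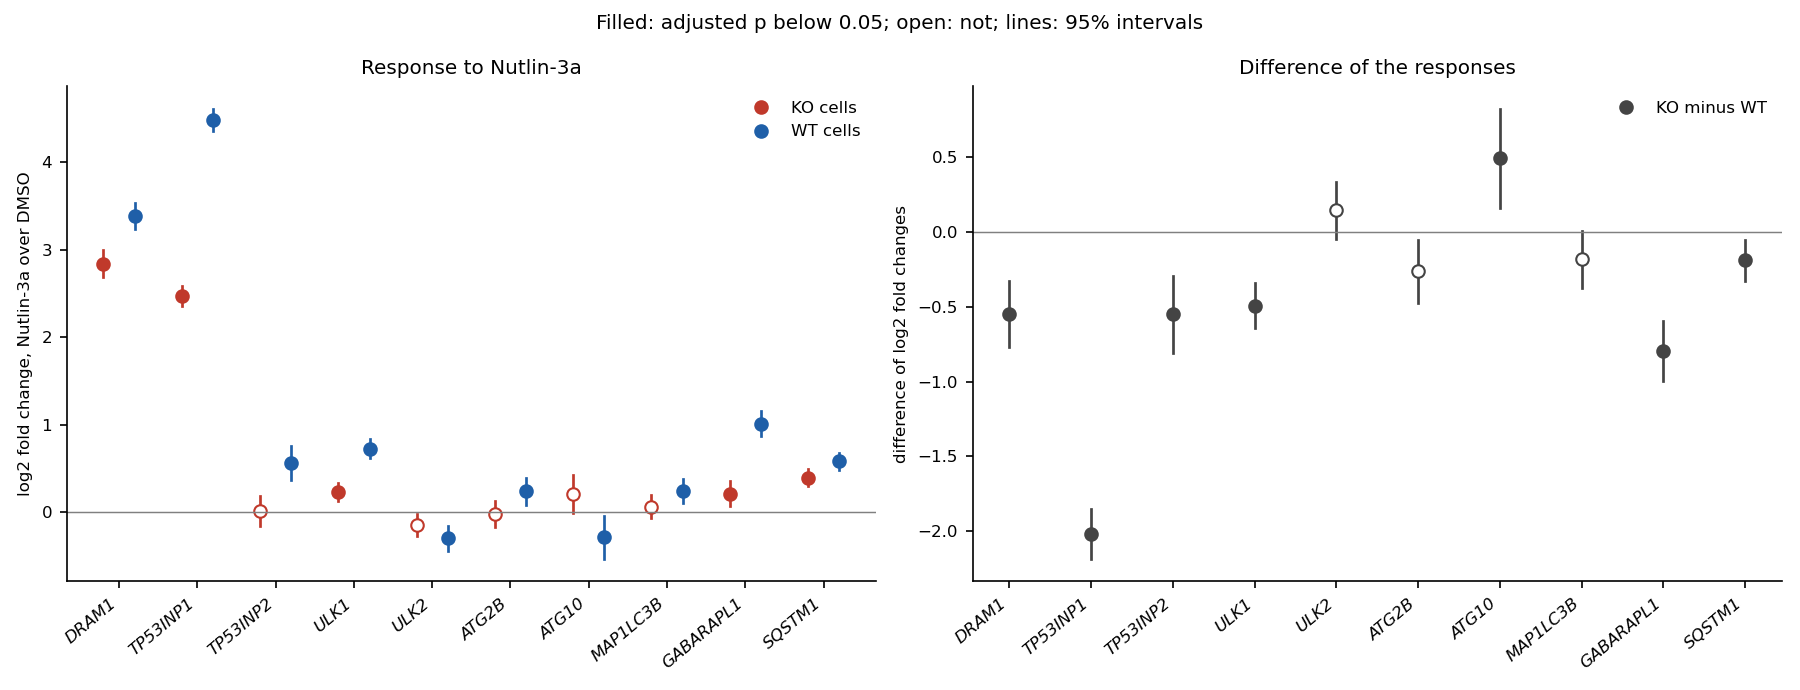
Left, log2 fold change with Nutlin-3a over DMSO in KO cells (red) and WT cells (blue). Right, difference of the responses (KO minus WT). Lines are 95% intervals, and filled points passed an adjusted p of 0.05. TP53INP1 lies at -2.02 on the right, and ATG10 is the 1 filled point above 0.

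Set side by side, the response in KO cells was smaller in 6 of the 10 genes (DRAM1, TP53INP1, TP53INP2, ULK1, GABARAPL1 and SQSTM1), higher for ATG10, and not called different for ULK2, ATG2B and MAP1LC3B. Of all tested genes, 13.4% had a called difference below 0 and 14.2% above 0. The median difference was -0.38 over the 10 genes and -0.0032 over all tested genes. The comparisons share libraries, so the responses, their difference and the KO against WT values are not independent of each other.

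The 10 genes differed in which treatment held the gap between KO and WT cells. Under DMSO, 8 were higher in KO cells (TP53INP1, TP53INP2, ULK1, ULK2, ATG2B, MAP1LC3B, GABARAPL1 and SQSTM1) and 1, DRAM1, was lower, where 31.4% of all genes were called higher and 30.1% lower. Under Nutlin-3a, 4 were higher in KO cells (TP53INP2, ULK2, ATG10 and SQSTM1) and 4 were lower (DRAM1, TP53INP1, ULK1 and GABARAPL1), where 32.7% of all genes were called higher and 30.4% lower. TP53INP1, ULK1 and GABARAPL1 thus changed sign between the treatments, while TP53INP2, ULK2 and SQSTM1 were higher and DRAM1 lower in KO cells under both. The median of the 10 genes was 0.03 under Nutlin-3a and 0.33 under DMSO, against 0.018 and 0.014 over all tested genes. Limma-trend on log2(RPKM + 0.1) called 6209 genes higher and 3747 lower in KO cells under Nutlin-3a, where edgeR called 5190 and 4822. Its median over all genes was 0.106. The RPKM carry no TMM scaling, so limma-trend differed from edgeR here in scaling as well as in the test.

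**Figure D3:**
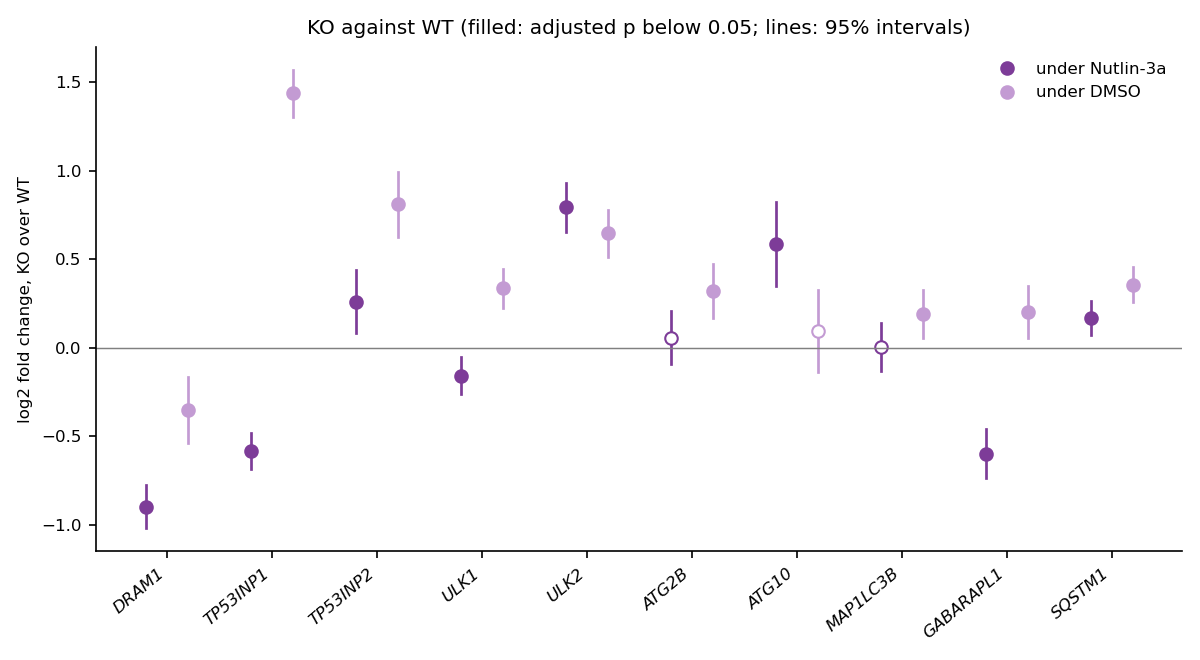
Log2 fold change of KO over WT cells for each of the 10 genes under Nutlin-3a (dark) and DMSO (light), with 95% intervals. Filled points passed an adjusted p of 0.05. TP53INP1 lies at -0.58 under Nutlin-3a and at 1.44 under DMSO.

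Levels of different genes can be compared per length, in RPKM. SQSTM1 was the highest of the 10 in every group, with a mean of 114 RPKM in KO Nutlin-3a, 85.1 in KO DMSO, 95.4 in WT Nutlin-3a and 63.6 in WT DMSO cells. Under Nutlin-3a, TP53INP1 came next, with a mean of 51.7 RPKM in KO and 72.6 in WT cells. It was followed by DRAM1, with 21.5 RPKM in KO and 37.6 in WT cells, although in KO cells the libraries of DRAM1 and GABARAPL1 overlapped. Under DMSO, GABARAPL1 and MAP1LC3B followed it, with overlapping libraries, at 18.0 and 17.6 RPKM in KO and 15.0 and 14.7 RPKM in WT cells. DRAM1 was then the lowest of the 10 in KO cells, at 2.93 RPKM. In WT DMSO cells, ATG2B, TP53INP1, ATG10 and ULK2 lay between 3.06 and 3.29 RPKM, each overlapping the next in the order.

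Ratios of RPKM within a library show the balance of related members. TP53INP1 over TP53INP2 was 9.36 and 10.0 in KO Nutlin-3a, 1.64 and 1.88 in KO DMSO, 16.2 and 18.5 in WT Nutlin-3a, and 1.08 and 1.20 in WT DMSO libraries. DRAM1 over TP53INP1 was 0.418 and 0.413 in KO Nutlin-3a, 0.355 and 0.290 in KO DMSO, 0.538 and 0.498 in WT Nutlin-3a, and 1.07 and 1.15 in WT DMSO libraries. The WT DMSO libraries are the ones in which DRAM1 exceeded TP53INP1 per length.

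The kinase and ATG8 pairs shifted most in WT Nutlin-3a cells. ULK1 over ULK2 was 3.77 and 3.84 in KO Nutlin-3a, 2.91 and 2.92 in KO DMSO, 7.32 and 7.37 in WT Nutlin-3a, and 3.74 and 3.50 in WT DMSO libraries. GABARAPL1 over MAP1LC3B was 1.11 and 1.17 in KO Nutlin-3a, 1.09 and 0.957 in KO DMSO, 1.75 and 1.70 in WT Nutlin-3a, and 1.09 and 0.948 in WT DMSO libraries. For both pairs the WT Nutlin-3a libraries lay above all others. These ratios are given as descriptions, with no test.

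**Figure D4:**
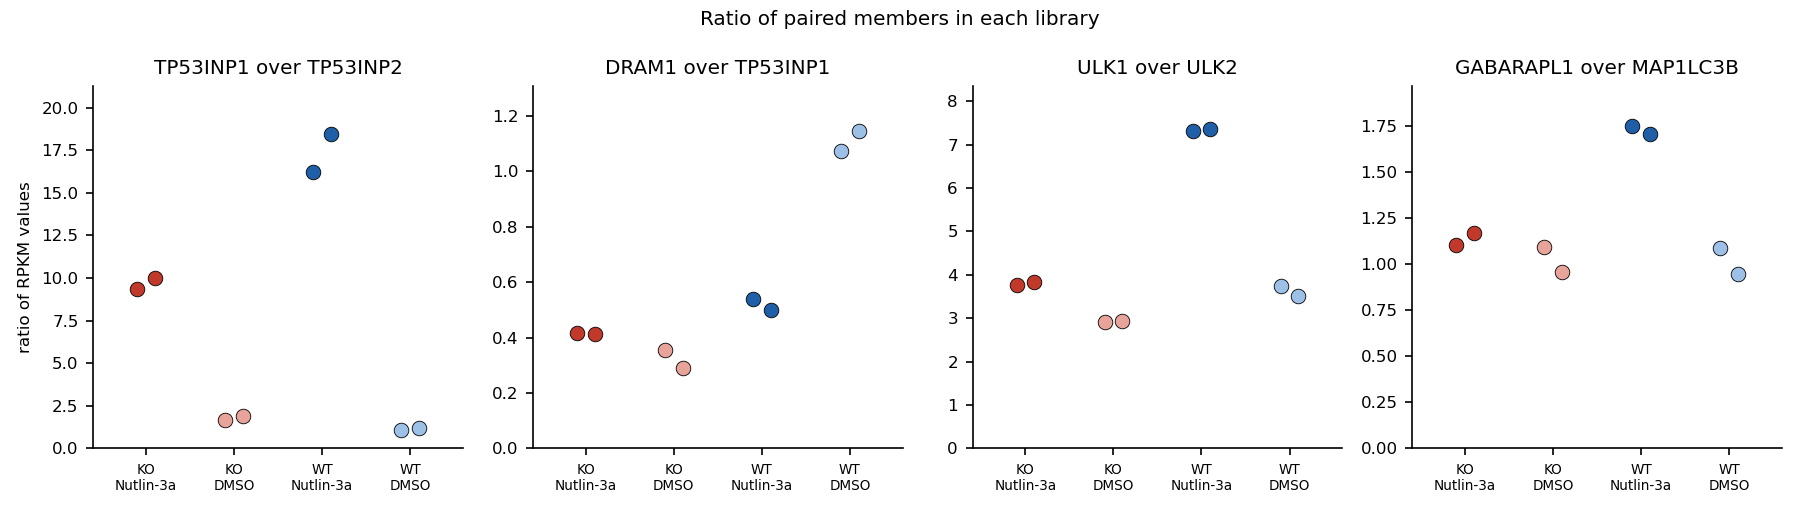
Ratio of the RPKM values of 2 genes in each library (points), for 4 pairs, with axes from 0. The WT Nutlin-3a libraries are the highest for TP53INP1 over TP53INP2, ULK1 over ULK2 and GABARAPL1 over MAP1LC3B, and the WT DMSO libraries for DRAM1 over TP53INP1.

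The 3 genes whose profile over the 8 libraries was closest were computed for all 10 members and are given for DRAM1, TP53INP1 and ULK1, by the root mean square difference of log2 CPM after each gene's own mean was taken off. For DRAM1 these were PLXNB3 (0.15), ALOX12B (0.22) and the death receptor gene FAS (0.23). For TP53INP1 they included the antiproliferative gene BTG2 (0.22) and TP53I3 (0.29), an oxidoreductase gene and known p53 target. For ULK1 they were the histone demethylase gene KDM6B (0.025), FLNC (0.030) and ZDHHC9 (0.043). The likeness rests on 4 group means and is a description alone.

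Promoter windows were read from RefSeq on the GRCh38.p14 build, each with 250 bases before and 50 after a gene's start. They were matched for 9 of the 10 genes, all but TP53INP1, in 12 windows. The p53 half-site consensus, a palindrome of 10 letters, was found in 1 of the 12 windows, that of GABARAPL1, and in 6.63% of all 35116 windows. A pair of half-sites 0 to 13 bases apart was in 0.0285% of all windows. The GABARAPL1 window holds 1 half-site and so no such pair. The E-box CACGTG, which TFEB-like factors can bind, was in 0 of the 12 and in 7.26% of all windows, and its longer form TCACGTGA, which contains it, was in 0 of the 12 and 0.98% of all. Both are palindromes, so a single search covers both strands. Such a match describes letters and does not show binding, and a missing match says only that these letters are not in that window. The bases before the start are shown for GABARAPL1, with the match in capitals, and for DRAM1, which had the larger rises and no match. They lie at chr12:10212627-10212876 and chr12:101877330-101877579, both on the plus strand.
GABARAPL1: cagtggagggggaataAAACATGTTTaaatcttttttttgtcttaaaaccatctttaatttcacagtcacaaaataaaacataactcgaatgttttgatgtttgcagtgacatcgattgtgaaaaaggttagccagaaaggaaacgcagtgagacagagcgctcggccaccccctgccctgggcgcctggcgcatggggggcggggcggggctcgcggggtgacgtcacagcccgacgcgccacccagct
DRAM1: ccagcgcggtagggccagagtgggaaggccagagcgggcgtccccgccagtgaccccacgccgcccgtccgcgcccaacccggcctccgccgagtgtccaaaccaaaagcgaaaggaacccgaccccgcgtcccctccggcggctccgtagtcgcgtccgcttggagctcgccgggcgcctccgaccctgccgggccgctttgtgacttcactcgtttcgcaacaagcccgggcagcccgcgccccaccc

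Around these 10 genes, 92 other autophagy genes were listed in 10 groups by role, of which 91 were tested. This list too was made with earlier results of these data known, so its shares are descriptions. In KO cells, 22 of the 91 (24.2%) rose with Nutlin-3a and 15 (16.5%) fell, near the 18.1% and 20.6% of all tested genes. In WT cells 47 (51.6%) rose and 15 (16.5%) fell, against 29.4% and 29.2% of all tested genes. The difference of the responses was below 0 for 29 (31.9%) and above 0 for 5 (5.49%), against 13.4% and 14.2%. The medians were 0.05 for the KO response, 0.17 for the WT response and -0.14 for their difference. KO against WT under Nutlin-3a, 16 (17.6%) were higher and 37 (40.7%) lower, against 32.7% and 30.4% of all tested genes. With limma-trend on log2(RPKM + 0.1) these counts were 22 and 25. Under DMSO, 32 (35.2%) were higher and 21 (23.1%) lower, against 31.4% and 30.1%. With a library left out, the differences below 0 numbered 20 to 36 and those above 0 numbered 3 to 7, with 3 without KO Nutlin-3a replicate 1, either KO DMSO library or WT DMSO replicate 2. The counts for the KO response ran from 14 to 30 for genes that rose, with 14 without KO DMSO replicate 2, and from 7 to 18 for genes that fell, with 7 without KO DMSO replicate 2, 8 without KO Nutlin-3a replicate 1, and 9 without KO Nutlin-3a replicate 2 or KO DMSO replicate 1.

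**Figure D5:**
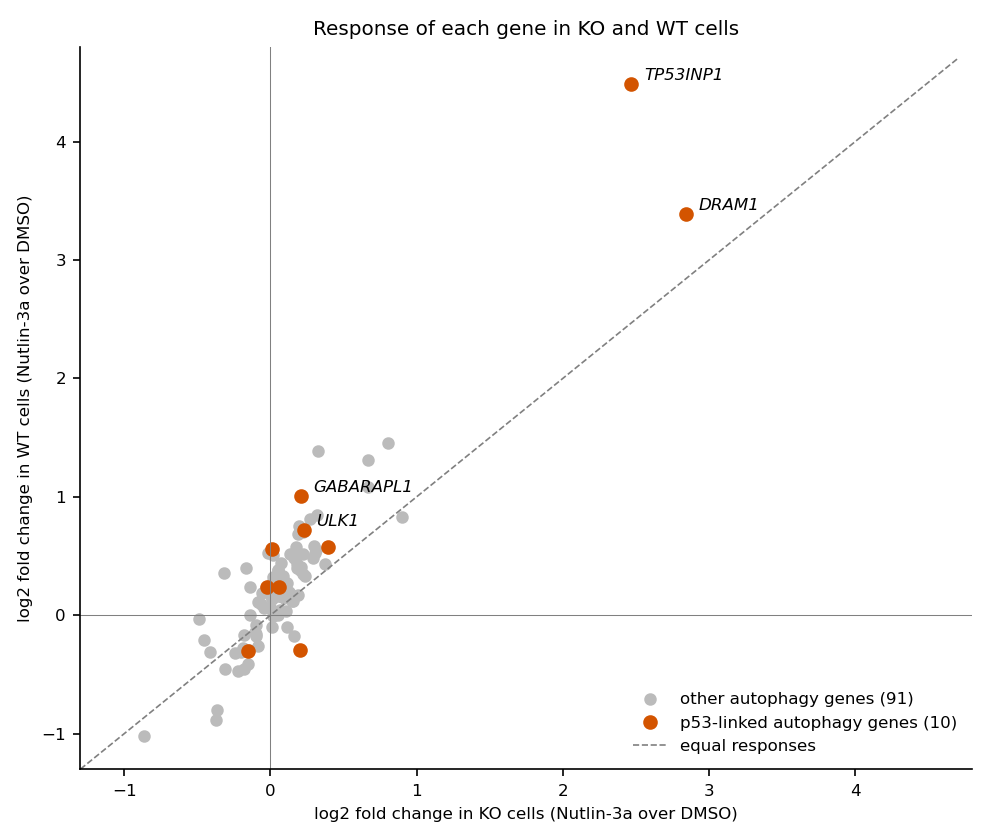
Log2 fold change with Nutlin-3a in KO cells (horizontal) against that in WT cells (vertical) for the 10 genes (orange) and 91 other autophagy genes (grey). The dashed line marks equal responses. TP53INP1 and DRAM1 lie far from all others, and GABARAPL1 lies at 0.21 in KO and 1.01 in WT cells.

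Among the initiation genes, ATG13, the ULK1 partner, rose in WT cells (log2 fold change 0.38, SE 0.05) and ULK3, a related kinase, fell (-0.17, SE 0.05), a call lost without WT DMSO replicate 1 (adjusted p = 0.188). Class III PI3-kinase complexes mark the phagophore membrane with a lipid. Of their 8 genes, 3 (37.5%) rose and 1 (12.5%) fell in WT cells, against 29.4% and 29.2% of all tested genes. The catalytic subunit gene PIK3C3 rose by 0.40 (SE 0.06), and its scaffold gene PIK3R4 fell by 0.46 on the log2 scale (SE 0.07). Of 9 genes of membrane supply, 5 (55.6%) rose and 1 (11.1%) fell. ATG2A, the paralog of ATG2B, rose by 0.50 (SE 0.09, adjusted p = 5.4e-05), and TMEM41B, a lipid scramblase gene, fell by 0.29 (SE 0.08).

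In the conjugation group 3 of 10 (30%) rose in WT cells, near the 29.4% of all tested genes, and 2 (20%) fell, against 29.2%. The protease genes ATG4A and ATG4C, which process ATG8 proteins, were called in opposite directions, at 1.09 (SE 0.10) and -0.80 (SE 0.12). Of 4 further ATG8 genes, GABARAPL2 alone was called (25%), and it rose by 0.38 (SE 0.05). Among genes of fusion with the lysosome, 8 of 13 (61.5%) rose and 1 (7.69%) fell. The tethering adaptor gene PLEKHM1 rose by 0.85 (SE 0.07), and SNAP29, a SNARE gene, fell by 0.45 (SE 0.06). Lysosomal genes and their regulators rose in 10 of 18 cases (55.6%) and fell in 5 (27.8%), the falls near the 29.2% of all tested genes. TFEB, a master regulator of lysosomal genes, rose by 0.83 (SE 0.19), although not without the same 3 libraries (0.54, adjusted p = 0.0661), and GLA, alpha-galactosidase, fell by 1.02 (SE 0.08). Among AMPK and mTORC1 inputs 6 of 13 (46.2%) rose and 3 (23.1%) fell. PRKAB1, an AMPK subunit gene, stood at 1.46 (SE 0.06) and RHEB, an mTORC1 activator gene, at -0.32 (SE 0.06).

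Of 11 other cargo receptors, 3 rose (27.3%) and 1 fell (9.09%) in KO cells, against 18.1% and 20.6% of all tested genes, and 9 (81.8%) rose in WT cells, against 29.4%. The difference of the responses was below 0 for 8 of the 11 (72.7%), against 13.4% of all tested genes. FAM134B, the ER-phagy receptor now named RETREG1, had 6.26 ± 0.07 CPM in KO Nutlin-3a, 5.00 ± 0.95 in KO DMSO, 5.25 ± 0.35 in WT Nutlin-3a and 2.00 ± 0.34 CPM in WT DMSO cells (SD, n = 2 each). It rose by 1.39 in WT cells (SE 0.19) and changed by 0.33 in KO cells (SE 0.15, adjusted p = 0.0993), which did not pass the threshold. The KO value was 0.14 and not called without KO DMSO replicate 2, and 0.53 and called without KO DMSO replicate 1 (adjusted p = 0.0405). It was also called without WT Nutlin-3a replicate 1 (adjusted p = 0.0459) and when only the 4 KO libraries were fitted (adjusted p = 0.0379). BNIP3L, a mitophagy receptor, rose by 0.36 in WT cells (SE 0.07) and fell by 0.32 in KO cells (SE 0.06).

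The called differences of the responses that were furthest below 0 were those of FAM134B (-1.06, SE 0.24, adjusted p = 0.00303), BNIP3L (-0.68, SE 0.09, adjusted p = 1.8e-05) and PRKAB1 (-0.65, SE 0.08, adjusted p = 9.8e-06). PRKAB1 rose by 0.80 in KO cells (SE 0.06). Those furthest above 0 were CTSA, a lysosomal protease gene (0.51, SE 0.08, adjusted p = 5.9e-05), ULK3 (0.34, SE 0.07, adjusted p = 0.00220) and SNAP29 (0.27, SE 0.09, adjusted p = 0.0332). CTSA fell in both populations, by 0.37 in KO cells (SE 0.05) and by 0.88 in WT cells (SE 0.06). ULK3 rose by 0.16 in KO cells (SE 0.05, adjusted p = 0.0158), a call lost without KO Nutlin-3a replicate 1 or either KO DMSO library (adjusted p from 0.0606 to 0.158). SNAP29 fell by 0.18 in KO cells (SE 0.06, adjusted p = 0.0244), a call lost in 11 of 18 alternatives. These were the ones without any single KO library, WT DMSO replicate 1 or the 3 libraries together (adjusted p from 0.0513 to 0.147), and those with upper-quartile factors (0.0575), limma-trend (0.0901 to 0.123) and the DESeq2 Wald test (0.0963). The difference of its responses was no longer called when any 1 library but KO Nutlin-3a replicate 2 or WT Nutlin-3a replicate 1 was left out (adjusted p from 0.0812 to 0.121), with the DESeq2 Wald test (adjusted p = 0.0803) and with unfiltered limma-trend (adjusted p = 0.0589).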

How the data were processed

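Poly(A) RNA of 8 CHP212 libraries was analysed. Per the labels, extraction used TRI reagent, and TruSEQ libraries were strand-specific. The submitters' processing notes name HTSeq 0.8.0, TopHat2 2.1.1 and the GRCh37 (hg19) build, among other tools. Which annotation and which strand setting the counting used is not given in the sources used here. The authors deposited whole read counts per gene, and RPKM values, which imply a whole-number gene length for 14791 of 14791 genes checked (within 0.001 bases). Groups were taken from sample titles, and columns were matched by name.

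In R 4.3.3, edgeR 4.0.16 fitted to the counts 4 group means over all 8 libraries (4 residual degrees of freedom) after filterByExpr, which removed 9490 genes, and TMM scaling. Its robust quasi-likelihood F test was applied to 5 comparisons, two-sided, with Benjamini-Hochberg adjustment over all 15879 tested genes and a threshold of 0.05. SE and 95% intervals of log2 fold changes come from the same fit. The edgeR steps were tested on simulated counts with fold changes set in the WT Nutlin-3a group. This covered the WT response, KO against WT under Nutlin-3a and the difference of the responses. Other steps were not simulated. Alternatives were DESeq2 1.42.0 size factors and Wald test, upper-quartile factors, no low-count filter, fits of 4 libraries, a block for the replicate number, limma-trend (limma 3.58.1) on log2(RPKM + 0.1) and log2(RPKM + 1), a threshold of 0.01, each library left out, and 3 libraries left out together. Those 3 had been named by an earlier analysis of these data as carrying reads of unrelated genes. Limma-trend used the RPKM without TMM scaling, so it differed from the main run in scaling as well as in the test.

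The 10 genes and all lists were chosen with earlier results of these data known. From each group of other autophagy genes, the text names the called genes with the largest rise and fall in WT cells (mean log2 CPM of at least 1) and, over the list, the 3 called differences of the responses furthest above and below 0. Of 92 listed genes, 3 were matched by an older symbol. Overlapping genes come from GENCODE 29 on GRCh38, for names alone. Some genes that these rules take are not reported here.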

Additional observations from a re-analysis of the deposited data

Results flagged for a closer look

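Results are listed here because the response to Nutlin-3a differed between KO and WT cells by the test of the difference itself (edgeR, adjusted p under 0.05). With 2 libraries per group, no test for a single outlying library was made. Among the 10 genes, the difference of the log2 responses (KO minus WT) was -0.55 for DRAM1, -2.02 for TP53INP1, -0.55 for TP53INP2, -0.49 for ULK1, -0.80 for GABARAPL1, -0.19 for SQSTM1 and 0.49 for ATG10. TP53INP1 had the largest fold difference between the DMSO groups among the 10 genes, with 50.7 ± 1.71 CPM in KO DMSO and 18.7 ± 0.85 CPM in WT DMSO cells (SD, n = 2 each). For ATG10 the Nutlin-3a group lay above its DMSO group in KO cells and below it in WT cells. ATG2B lay the other way round, and the difference of its responses was not called. Among the other autophagy genes named, the difference was -1.06 for FAM134B, -0.68 for BNIP3L, -0.65 for PRKAB1, 0.51 for CTSA, 0.34 for ULK3 and 0.27 for SNAP29. BNIP3L fell in KO cells and rose in WT cells, and ULK3 did the reverse.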

How the results depend on the processing

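The number of the 10 genes called was 4 to 6 in the KO response, 8 to 10 in the WT response, 6 to 8 in KO against WT under Nutlin-3a, 7 to 9 under DMSO and 5 to 8 in the difference of the responses, over all alternatives run. Whether the replicate numbers pair the samples cannot be decided from 2 libraries per group. Deviations of same-numbered libraries correlated at -0.02 to 0.23 over the 6 pairs of groups, with 2 numbers each, and the fit with a replicate block called 5, 10, 8, 9 and 7 of the 10 genes, as without it. Of 890 single-gene values of the 10 genes under alternatives, 819 kept direction and call, 50 lost the call, 8 gained it and 13 changed sign. None of the 13 was called, and each belongs to a value near 0. For TP53INP2 in the KO response these were -0.00040 with no low-count filter, and -0.047 and -0.055 with a library left out, where all values ran from -0.055 to 0.075. For ATG2B in the KO response they were 0.0037 with upper-quartile factors, 0.0069 with limma-trend on log2(RPKM + 0.1), with or without the low-value filter, and 0.0057 on log2(RPKM + 1). For ATG2B in KO against WT under Nutlin-3a they were -0.086 without the 3 libraries and -0.079 without WT Nutlin-3a replicate 1. All values with a library left out ran there from -0.079 to 0.20, and the value of 0.20, which kept its sign, was called. For MAP1LC3B in the same comparison they were -0.016 with DESeq2 size factors and with the Wald test, and -0.019 and -0.037 with a library left out, where all values ran from -0.037 to 0.047. The cause was not tested.

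Of the other autophagy genes, those called lower in the KO response numbered 15, against 7, 9 and 5 with limma-trend on log2(RPKM + 0.1), on log2(RPKM + 1) and with no low-value filter, and 7 to 18 with a library left out. Those called higher there numbered 22, and 14 to 30 with a library left out. The differences above 0 numbered 5, against 3 with the Wald test and with unfiltered limma-trend, and 3 to 7 with a library left out. The differences below 0 numbered 29, against 19 with unfiltered limma-trend and 20 to 36 with a library left out. In KO against WT under Nutlin-3a, 16 were higher and 37 lower, against 22 and 25 with limma-trend on log2(RPKM + 0.1). Low genes moved with the pseudocount of 1, which by construction shrinks them. FAM134B was then 0.65 in the WT response and -0.43 in the difference, TFEB 0.49 in the WT response, and DRAM1 -0.22 in KO against WT under DMSO. Without the 3 libraries PIK3R4 was -0.30 in the WT response.

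With 2 libraries per group and 1 KO population, p values measure the spread between replicate cultures of these populations. ATG10, with 174 to 343 reads, had the widest intervals of the 10 genes. Counting on overlapping or near-identical genes could not be checked from read tables.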
